A study of Mus musculus with 24 samples.

Results

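The 31 ATAC-seq peaks described here surround Ptgs2, the gene for cyclooxygenase 2, on mouse chromosome 1. They are the consensus peaks whose midpoint lay nearest to the transcription start site (TSS) of Ptgs2 among 21924 protein-coding genes of the GENCODE vM21 basic annotation, and they are 31 of 184158 peaks in the deposited table. ATAC-seq measures open chromatin by letting a transposase cut and tag accessible DNA. It was done on bone marrow-derived macrophages (BMDMs) in 24 libraries, 6 in each of 4 groups: wildtype (WT) or AhR-KO, each unstimulated or stimulated with LPS, a bacterial cell wall component. WT marrow came from C57BL/6J mice and AhR-KO marrow from B6.129-Ahr tm1Bra/J mice, which lack the aryl hydrocarbon receptor (AhR) in the whole body. Mice were young adults of both sexes, and the 6 libraries of a group stood for 6 animals of 1 experiment. All cultures grew in medium with 10% serum, GM-CSF at 10 ng/ml and TGF-β at 2 ng/ml, conditions chosen to make the cells resemble alveolar macrophages. Stimulated cultures received 97 EU/ml LPS from day 6 for 24 h and then, for 10 min, 5 µM of the calcium ionophore A23187. The same treatment text stands with all libraries in the labels, so whether unstimulated cultures received the ionophore is not given in the sources used here.

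Cyclooxygenase 2 turns arachidonic acid into prostaglandin H2, from which other enzymes make the prostaglandins and thromboxane. In macrophages the gene is known to be switched on by LPS, through factors such as NF-kB, C/EBP and AP-1 that bind upstream of its TSS. AhR is a transcription factor that small molecules activate and that binds DNA with its partner ARNT at sites with the core GCGTG.

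The locus was chosen for its values. It was selected on the comparison of AhR-KO with WT in LPS cultures, in which 15 of the 31 peaks were higher in AhR-KO and 1 was lower by the rule used throughout for a differentially accessible region (DAR), a fold change of at least 1.5 with an adjusted p of at most 0.05. Over all 174193 tested peaks 13.4% were higher and 13.1% lower by that rule. Values of that comparison are therefore given below as a description, without a test. The 2 unstimulated groups hold none of the selecting libraries, whereas each LPS response shared its LPS libraries with the comparison that selected the locus. All 24 libraries entered 1 fit, so the p-values and DAR calls of the unstimulated comparison also depended on the LPS libraries.

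The promoter and parts of 5 peaks whose accessibility is described below are printed here. Sequences read 5′ to 3′ on the plus strand of mm10, and capitals mark matches to the motifs searched. The promoter holds the 250 bases before the TSS (chr1:150099781-150100030, RefSeq, build GRCm38.p6). Of each distal peak the stretch of 150 bases with the most kinds of motif match was taken, so that the presence of a match in it is no finding. The stretches lie at chr1:150055065-150055214 for the -45.5 kb peak, chr1:150108734-150108883 for the +9.0 kb peak, chr1:150143654-150143803 for the +43.7 kb peak, chr1:150198404-150198553 for the +97.9 kb peak and chr1:150203030-150203179 for the +103.5 kb peak. Peaks are named by the distance of their midpoint from the TSS, with a minus sign upstream.
Ptgs2 promoter: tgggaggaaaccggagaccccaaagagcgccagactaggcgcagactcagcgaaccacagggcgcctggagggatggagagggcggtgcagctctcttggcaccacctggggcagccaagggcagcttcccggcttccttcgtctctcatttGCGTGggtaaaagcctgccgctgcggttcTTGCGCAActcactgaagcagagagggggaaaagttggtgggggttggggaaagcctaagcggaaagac
-45.5 kb peak: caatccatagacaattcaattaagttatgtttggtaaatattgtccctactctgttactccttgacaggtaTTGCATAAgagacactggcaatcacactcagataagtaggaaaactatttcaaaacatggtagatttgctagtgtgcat
+9.0 kb peak: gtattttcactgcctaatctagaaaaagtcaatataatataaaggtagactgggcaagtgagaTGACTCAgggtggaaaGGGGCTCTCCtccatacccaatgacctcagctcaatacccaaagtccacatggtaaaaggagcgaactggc
+43.7 kb peak: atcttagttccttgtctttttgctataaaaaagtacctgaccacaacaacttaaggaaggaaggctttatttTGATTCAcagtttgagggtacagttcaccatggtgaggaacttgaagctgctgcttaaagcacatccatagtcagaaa
+97.9 kb peak: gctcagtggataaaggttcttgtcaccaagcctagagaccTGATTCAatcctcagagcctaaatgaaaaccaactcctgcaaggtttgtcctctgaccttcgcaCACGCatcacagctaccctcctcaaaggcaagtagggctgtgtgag
+103.5 kb peak: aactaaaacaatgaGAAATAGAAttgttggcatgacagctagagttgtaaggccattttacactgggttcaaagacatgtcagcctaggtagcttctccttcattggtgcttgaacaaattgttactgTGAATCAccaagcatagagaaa

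In the promoter, the AhR core GCGTG stood at bases -98 to -94 and the C/EBP motif, as TTGCGCAA, at bases -69 to -62 before the TSS. The capitals in the +9.0 kb stretch mark an AP-1 match (TGACTCA) and an NF-kB match, and those in the +97.9 kb stretch an AP-1 match and an AhR core on the minus strand (CACGC).

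Library totals ran from 8.54 M to 34.6 M counts in peaks, with a median of 20.8 M in unstimulated WT, 22.64 M in unstimulated AhR-KO, 30.4 M in WT with LPS and 24.98 M in AhR-KO with LPS. Values below are in CPM, counts per M counts of the library, where M stands for mega. Of the macrophage genes Adgre1, Csf1r, Cd68, Mertk, Fcgr1 and Itgam, 6 of 6 had a peak over their TSS, as had 5 of 5 alveolar macrophage genes. None of 4 T cell genes and 1 of 4 B cell genes, Cd79b at 0.229 to 0.416 CPM on average, had one. Summed over the 4 of 6 neutrophil genes with a TSS peak, libraries ran from 33.03 to 47.9 CPM in unstimulated WT, 36.1 to 40.3 in unstimulated AhR-KO, 35.98 to 54.03 in WT with LPS and 44.5 to 52.8 in AhR-KO with LPS. Over the 3 of 4 dendritic cell genes with one the ranges were 25.7 to 34.5, 26.6 to 32.6, 28.3 to 45.2 and 20.01 to 25.9 CPM in the same order, and for the alveolar macrophage genes 48.1 to 58.4, 71.1 to 88.2, 44.1 to 54.3 and 52.8 to 67.5 CPM. Single genes did not all follow their sums. In unstimulated AhR-KO against WT, the neutrophil genes S100a9 and Ltf were lower by DAR-sized log2 fold changes of -1.35 and -0.93, with S100a8 at 0.25 and Camp at -0.19. Of the dendritic cell genes, Flt3 gave -1.16, Ccr7 -0.82 and Zbtb46 0.21. The alveolar macrophage genes were all higher, Marco (0.94), Itgax (0.72) and Car4 (0.61) as DARs and Pparg (0.43) and Siglecf (0.41) below the rule. With LPS, AhR-KO minus WT was -1.29 at Flt3, -1.53 at Ccr7 and -0.19 at Zbtb46. In the same comparison S100a9 gave -1.105, Ltf -0.455, S100a8 0.09 and Camp 0.25. The part of these differences in the Ptgs2 values was not tested, and in such bulk libraries fewer cells with an open site and less opening per cell cannot be told apart. The TSS peak of Ahr itself does not reach exon 2, which this allele lacks, so it checks no label. It averaged 22.5 CPM in unstimulated WT and 13.2 CPM in unstimulated AhR-KO.

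The 31 peaks spanned chr1:150030729-150210055, and 8 lay upstream, 1 over the TSS, 4 over the gene or its 3′ end and 18 further downstream. The gene itself runs on the plus strand from 150100031 to 150108227. Upstream peaks from -23.1 to -2.2 kb lay within Ptgs2os, a noncoding transcript on the opposite strand whose start, at 150099963, falls in the TSS peak of Ptgs2, so that the peak covers both starts. Likewise the +58.9 and +65.3 kb peaks lay in Ptgs2os2, a noncoding RNA whose own start falls in the latter peak. Per kilobase of peak and over all 24 libraries, the +65.3 kb peak was the most accessible, with 43.8 CPM per kb. It was followed by the +51.3 kb peak with 32.1, the +67.1 kb peak with 26.9, the TSS peak with 22.1, the +45.2 kb peak with 20.6 and the +43.7 kb peak with 20.1 CPM per kb. The +65.3 kb peak was the highest in each group, but the order below it differed between groups. The next was the +43.7 kb peak in unstimulated WT (29.7 CPM per kb), the TSS peak in WT with LPS (30.6) and the +51.3 kb peak in unstimulated AhR-KO (35.6) and AhR-KO with LPS (38.7). With LPS the +97.9 kb peak reached 23.3 CPM per kb in WT and 33.8 in AhR-KO, the latter above the TSS peak at 31.7. The 6 peaks from +43.7 to +67.1 kb held a median of 70.6% of all Ptgs2 counts in unstimulated WT libraries and 42.9% in AhR-KO libraries with LPS. The TSS peak held a median of 7.73% and 8.84% in the same groups.

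**Figure D1:**
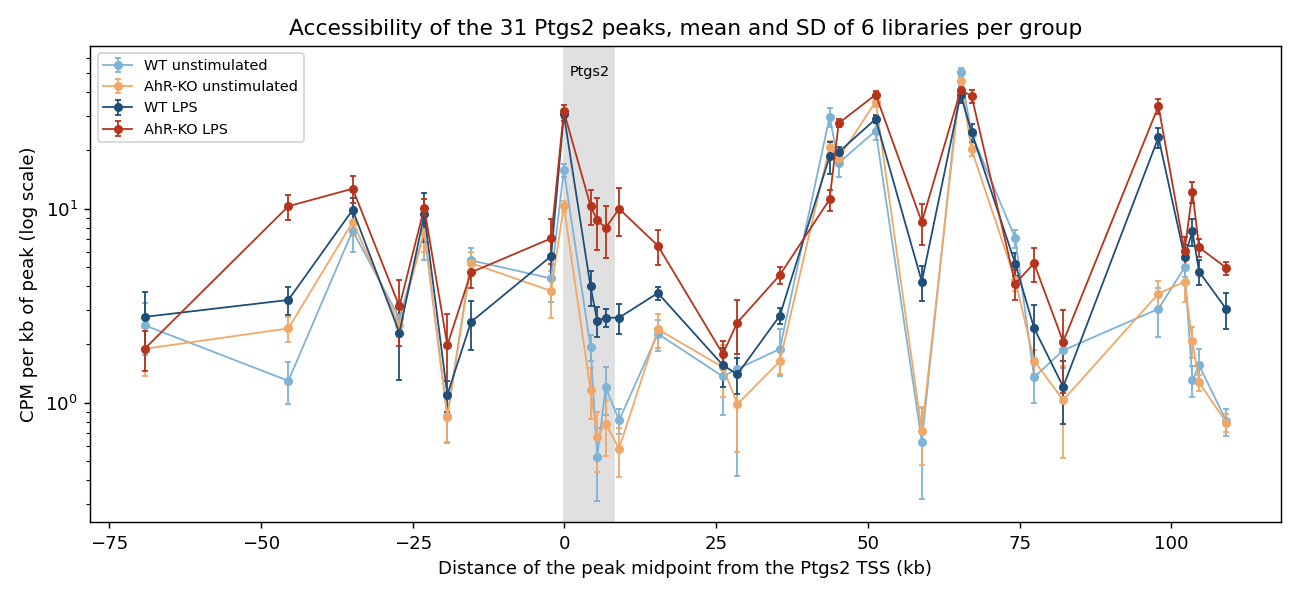
Accessibility of each of the 31 Ptgs2 peaks in CPM per kb (log scale) against the distance of its midpoint from the TSS in kb, as mean and SD of 6 libraries in each of 4 groups, with the gene shaded. The AhR-KO LPS points lie above the other groups over the gene body, at -45.5 kb and at +97.9 kb, and the +43.7 kb peak runs the other way.

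At the TSS, accessibility was lower in unstimulated AhR-KO than in WT cells, and LPS raised it in both genotypes. The TSS peak (chr1:150099439-150100439, covering exon 1) had 14.1, 15.9 and 17.4 CPM as lowest, median and highest of the 6 unstimulated WT libraries and 9.36, 10.2 and 11.4 CPM in unstimulated AhR-KO. It had 27.9, 30.5 and 33.6 CPM in WT with LPS and 28.3, 32.1 and 35.1 CPM in AhR-KO with LPS. Every unstimulated AhR-KO library lay below every unstimulated WT library, and the LPS groups overlapped each other. The unstimulated difference was a log2 fold change of -0.61 (SE 0.07, edgeR adjusted p = 9.49e-09). It stayed below 0 but under the fold threshold with RLE size factors (-0.55) and in DESeq2 (-0.54), and likewise at -0.58 without replicate 1 of either unstimulated group. LPS gave 0.96 in WT (SE 0.07, edgeR adjusted p = 3.07e-15) and 1.62 in AhR-KO (SE 0.07, edgeR adjusted p = 1.03e-21).

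Over the gene body, signal that was low in unstimulated cells rose with LPS in both genotypes. The +9.0 kb peak (chr1:150108225-150109919), which begins in the last bases of exon 10 and runs beyond the 3′ end, had 1.12, 1.33 and 1.75 CPM in unstimulated WT and 0.748, 0.917 and 1.51 CPM in unstimulated AhR-KO. With LPS it had 3.78, 4.55 and 5.85 CPM in WT and 9.51, 16.7 and 23.2 CPM in AhR-KO. The LPS libraries of each genotype lay above all its unstimulated ones. The LPS response was 1.78 in WT (SE 0.19) and 4.12 in AhR-KO (SE 0.18), a fold change of 17.4. Both values are a description, since a broad peak was called here only in LPS libraries.

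The +4.3 kb peak (chr1:150104042-150104525) over exons 7 and 8 had a median of 0.98 CPM in unstimulated WT, 0.58 in unstimulated AhR-KO, 1.98 in WT with LPS and 5.30 in AhR-KO with LPS. Its lowest and highest libraries were 0.75 and 1.09, 0.319 and 0.763, 1.41 and 2.53, and 3.12 and 6.18 CPM in that order, and the 2 unstimulated groups overlapped. LPS raised it by 1.04 in WT (SE 0.19, edgeR adjusted p = 1.29e-05) and by 3.14 in AhR-KO (SE 0.19). The AhR-KO value is a description, since a broad peak was called here only in AhR-KO LPS libraries, 2 of 6. Without stimulation it was lower in AhR-KO, by a log2 fold change of -0.73 (SE 0.24, edgeR adjusted p = 0.0133).

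The other gene-body peaks lie in exon 10, the long last exon. The +5.4 kb peak (chr1:150105265-150105677) had a median of 0.22 CPM in unstimulated WT (0.116 to 0.322), 0.29 in unstimulated AhR-KO (0.132 to 0.379), 1.09 in WT with LPS (0.899 to 1.30) and 3.96 in AhR-KO with LPS (1.94 to 4.80). It rose by 2.27 in WT (SE 0.29, edgeR adjusted p = 2.35e-08) and by 3.69 in AhR-KO (SE 0.24). The AhR-KO value is again a description, since this peak too was called only in AhR-KO LPS libraries, 5 of 6. The +6.8 kb peak (chr1:150106512-150107236) had a median of 0.925 CPM in unstimulated WT (0.495 to 1.13), 0.58 in unstimulated AhR-KO (0.319 to 0.826), 1.91 in WT with LPS (1.86 to 2.41) and 5.96 in AhR-KO with LPS (3.08 to 7.90). Both LPS groups lay clear of their unstimulated groups at both peaks, with responses at +6.8 kb of 1.16 in WT (SE 0.22, edgeR adjusted p = 2.00e-05) and 3.31 in AhR-KO (SE 0.21, edgeR adjusted p = 3.55e-16). In unstimulated cells the +6.8 kb peak gave -0.62 (SE 0.27, edgeR adjusted p = 0.0673), which passed the DAR rule when only the 12 unstimulated libraries were fitted (-0.61) and when AhR-KO LPS replicate 1 (-0.62), unstimulated AhR-KO replicate 1 (-0.77) or unstimulated WT replicate 6 (-0.74) was left out. The +9.0 kb peak gave -0.48 (SE 0.25, edgeR adjusted p = 0.12) and passed it, at -0.62, without unstimulated AhR-KO replicate 2.

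Replicate 1 of AhR-KO with LPS was the lowest library of its group at each of the 4 gene-body peaks, for instance 9.51 CPM at +9.0 kb against 15.5 to 23.2 in the other 5, although its total of 28.5 M counts was the highest of its group. Without it the AhR-KO responses were 3.25, 3.82, 3.45 and 4.245 at +4.3, +5.4, +6.8 and +9.0 kb. The summed signal of the 4 gene-body peaks, as a ratio to the TSS peak, had a median of 0.22 in unstimulated WT and 0.218 in unstimulated AhR-KO. It was 0.326 in WT with LPS and 0.97 in AhR-KO with LPS, with 0.623 to 1.27 over the 6 libraries, and the AhR-KO LPS libraries lay above all others.

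**Figure D2:**
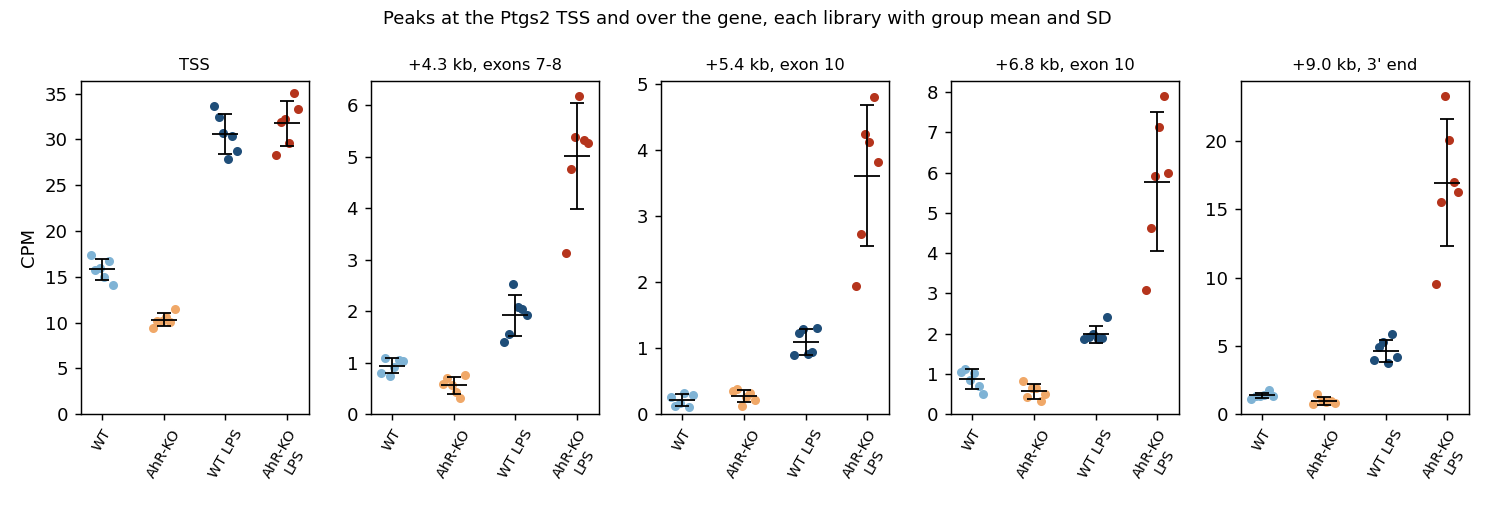
CPM of the TSS peak and of the 4 peaks over the gene, 1 point for each of 6 libraries in each of 4 groups, with the group mean and SD and a separate axis from 0 in each panel. At the TSS the LPS groups overlap at 27.9 to 35.1 CPM, whereas at +9.0 kb the AhR-KO LPS libraries, at 9.51 to 23.2 CPM, lie above the WT LPS libraries.

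Upstream, the -45.5 kb peak (chr1:150053808-150055252), in intergenic DNA, was higher in AhR-KO without stimulation and rose with LPS. It had 1.32, 1.84 and 2.56 CPM in unstimulated WT and 2.69, 3.47 and 4.26 CPM in unstimulated AhR-KO, with no overlap between them. With LPS it had 3.57, 5.11 and 5.83 CPM in WT and 12.4, 14.8 and 18.2 CPM in AhR-KO. The unstimulated difference was 0.93 (SE 0.15, edgeR adjusted p = 7.06e-06), and LPS raised the peak by 1.42 in WT (SE 0.15, edgeR adjusted p = 1.28e-10) and by 2.09 in AhR-KO (SE 0.12, edgeR adjusted p = 2.39e-17). The order of the 4 groups, from unstimulated WT through unstimulated AhR-KO and WT with LPS to AhR-KO with LPS, was the reverse of that at +43.7 kb, with the ranges of the middle groups overlapping at both peaks.

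The -15.4 kb peak (chr1:150084477-150084746), within Ptgs2os, fell with LPS in WT. It had 1.22, 1.38 and 1.86 CPM in unstimulated WT, 0.554, 0.608 and 1.06 CPM in WT with LPS, 1.10, 1.45 and 1.70 CPM in unstimulated AhR-KO and 0.858, 1.32 and 1.5 CPM in AhR-KO with LPS. WT LPS libraries lay below all unstimulated WT libraries, with a log2 fold change of -1.03 (SE 0.18, edgeR adjusted p = 8.04e-06). In AhR-KO the value was -0.15 (SE 0.17, edgeR adjusted p = 0.438). The outermost upstream peak, at -69.2 kb (chr1:150030729-150031026), had medians of 0.605 to 0.774 CPM in the 4 groups and no tested comparison that passed.

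Of the 6 peaks from +43.7 to +67.1 kb, 5 were called in all 6 libraries of every group, the +58.9 kb peak being the exception, and their changes differed in direction. The +43.7 kb peak (chr1:150143443-150144066) fell with LPS and was lower in AhR-KO. It had 15.8, 18.9 and 21.5 CPM in unstimulated WT, 11.6, 12.9 and 14.5 CPM in unstimulated AhR-KO, 8.70, 11.8 and 14.3 CPM in WT with LPS and 5.58, 6.89 and 7.97 CPM in AhR-KO with LPS. It fell by 0.68 with LPS in WT (SE 0.10, edgeR adjusted p = 2.39e-07) and by 0.89 in AhR-KO (SE 0.10, edgeR adjusted p = 2.24e-09). The unstimulated difference of -0.52 (SE 0.10, edgeR adjusted p = 6.83e-05) separated the groups but did not reach the fold threshold.

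The neighbouring +45.2 kb peak (chr1:150144855-150145508) moved the other way in AhR-KO. It had 8.98, 11.2 and 14.3 CPM in unstimulated WT, 10.5, 12.1 and 13.1 CPM in unstimulated AhR-KO, 11.5, 12.9 and 13.6 CPM in WT with LPS and 17.04, 17.9 and 19.4 CPM in AhR-KO with LPS. The AhR-KO LPS libraries lay above all others, and the response was 0.60 in AhR-KO (SE 0.08, edgeR adjusted p = 2.02e-08) and 0.20 in WT (SE 0.08, edgeR adjusted p = 0.0289). The AhR-KO value lay just over the fold threshold of 0.58 and fell under it with RLE size factors (0.56), upper quartile factors (0.50), DESeq2 (0.56), only the 12 libraries compared (0.56), and when AhR-KO LPS replicate 5 (0.58), unstimulated AhR-KO replicate 1 (0.56) or replicate 2 (0.57) was left out.

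The +51.3 kb peak (chr1:150150887-150151805) differed by genotype and little by LPS. Unstimulated WT libraries had 20.6, 22.8 and 26.6 CPM and unstimulated AhR-KO libraries 29.8, 33.6 and 34.5 CPM, without overlap. With LPS they had 25.1, 26.9 and 28.2 CPM in WT and 33.6, 35.6 and 37.5 CPM in AhR-KO. The unstimulated difference of 0.50 (SE 0.06, edgeR adjusted p = 2.69e-08) stayed under the fold threshold, and the LPS values were 0.20 in WT and 0.12 in AhR-KO.

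The +67.1 kb peak (chr1:150166609-150167623) had 22.8, 24.8 and 25.8 CPM in unstimulated WT, 17.6, 20.6 and 21.9 CPM in unstimulated AhR-KO, 22.1, 25.1 and 29.3 CPM in WT with LPS and 34.4, 38.8 and 43.5 CPM in AhR-KO with LPS. All unstimulated AhR-KO libraries lay below WT, and all AhR-KO LPS libraries above WT LPS. LPS gave 0.03 in WT (SE 0.07, edgeR adjusted p = 0.748) and 0.91 in AhR-KO (SE 0.07, edgeR adjusted p = 8.35e-15). The +65.3 kb peak (chr1:150164643-150165967) at the Ptgs2os2 start, the most accessible of all, had medians of 66.2, 60.5, 49.7 and 51.8 CPM in unstimulated WT, unstimulated AhR-KO, WT with LPS and AhR-KO with LPS and no DAR. Its LPS value in WT was -0.38 (SE 0.06, edgeR adjusted p = 3.09e-07). The +58.9 kb peak (chr1:150158781-150159106), in the body of Ptgs2os2, was low without LPS, with medians of 0.187 CPM in WT and 0.236 CPM in AhR-KO. With LPS the medians were 1.42 and 2.72 CPM, and the responses 2.70 in WT (SE 0.28) and 3.56 in AhR-KO (SE 0.24). These responses are a description, since a broad peak was called at +58.9 kb only in LPS libraries. The +74.3 kb peak (chr1:150174081-150174674) was a lower DAR of unstimulated AhR-KO, at 2.16, 2.57 and 2.96 CPM against 3.37, 4.32 and 4.62 CPM in WT (log2 fold change -0.71, SE 0.13, edgeR adjusted p = 2.60e-05).

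**Figure D3:**
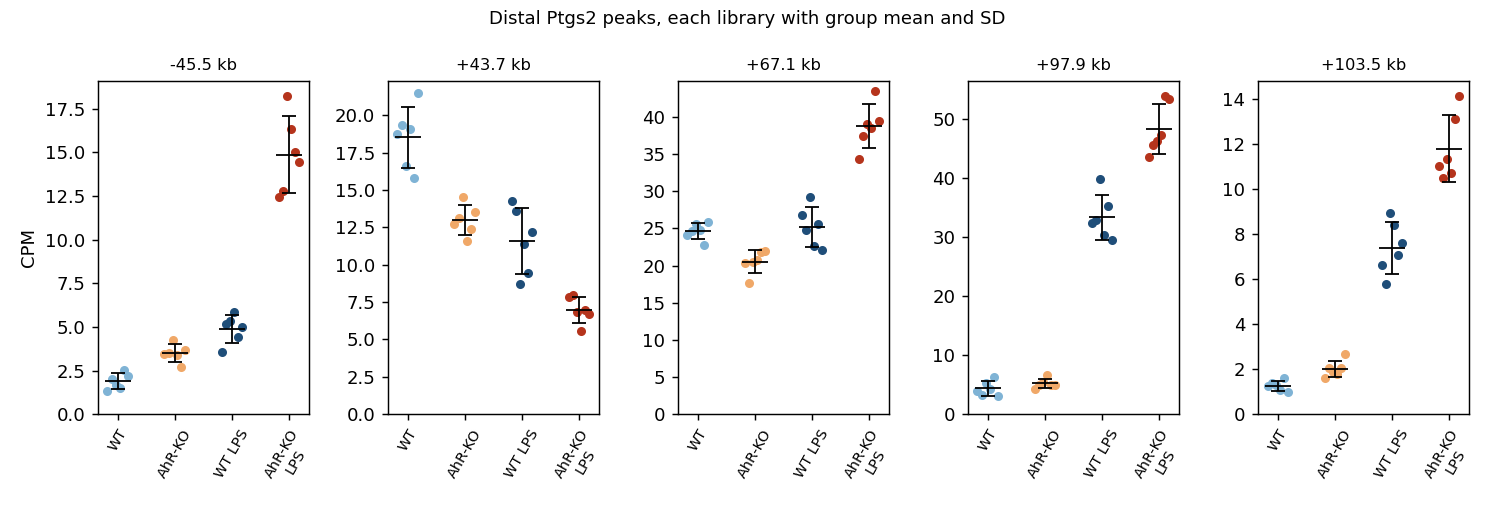
CPM of 5 distal peaks, 1 point for each of 6 libraries in each of 4 groups, with the group mean and SD and a separate axis from 0 in each panel. The +43.7 kb peak falls from a mean of 18.5 CPM in unstimulated WT to 6.97 CPM in AhR-KO with LPS, while the other 4 are highest in AhR-KO with LPS.

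The last 5 peaks downstream, from +97.9 to +109.1 kb, held the largest LPS response in WT. The +97.9 kb peak (chr1:150197262-150198693) had 3.02, 4.14 and 6.28 CPM in unstimulated WT and 29.5, 32.6 and 39.9 CPM in WT with LPS. In AhR-KO it had 4.21, 5.02 and 6.69 CPM unstimulated and 43.6, 46.8 and 53.9 CPM with LPS. LPS raised it 7.90-fold in WT (log2 fold change 2.98, SE 0.12, edgeR adjusted p = 6.74e-20) and 9.24-fold in AhR-KO (3.21, SE 0.11, edgeR adjusted p = 1.09e-21), with no overlap in either genotype. The unstimulated groups overlapped, with a difference of 0.31 (SE 0.13, edgeR adjusted p = 0.0687).

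The +103.5 kb peak (chr1:150203001-150203969) was a higher DAR of unstimulated AhR-KO, with 1.61, 1.97 and 2.67 CPM against 0.99, 1.27 and 1.63 CPM in WT (0.70, SE 0.17, edgeR adjusted p = 0.000824), the ranges touching at 1.61 and 1.63 CPM. With LPS it had 5.79, 7.33 and 8.93 CPM in WT and 10.5, 11.2 and 14.2 CPM in AhR-KO, responses of 2.58 (SE 0.14, edgeR adjusted p = 6.98e-18) and 2.55 (SE 0.12, edgeR adjusted p = 1.03e-19). The +104.6 kb peak rose by 1.59 in WT (SE 0.15, edgeR adjusted p = 9.11e-12) and 2.29 in AhR-KO (SE 0.14, edgeR adjusted p = 1.73e-16), from medians of 0.994 and 0.782 CPM to 2.91 and 3.84 CPM. The +109.1 kb peak, the outermost member (chr1:150208217-150210055), rose by 1.89 in WT (SE 0.14) and 2.65 in AhR-KO (SE 0.13), from medians of 1.503 and 1.45 CPM to 5.51 and 9.19 CPM. These 2 responses are a description, since a broad peak was called at +109.1 kb only in LPS libraries.

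Counted over the locus, LPS raised 14 Ptgs2 peaks in WT and 20 in AhR-KO, and 5 differed between the unstimulated genotypes. The LPS response of WT cells held 14 higher and 2 lower DARs of 31, beside 25.4% higher and 21.6% lower over all tested peaks, and the median log2 fold change was 0.37 over the 31 peaks and -0.01 over all peaks. That of AhR-KO cells held 20 higher and 1 lower, beside 27.3% and 21.5%, with a median of 1.24 and 0.05 over all peaks. All 14 higher DARs of WT were among the 20 of AhR-KO. Because the locus was selected for higher values in AhR-KO than in WT with LPS, the larger count and median of AhR-KO follow in part from that choice. The difference between the 2 responses was not tested. The lower ones were the -15.4 and +43.7 kb peaks in WT and the +43.7 kb peak in AhR-KO. AhR-KO against WT without stimulation gave 2 higher (-45.5 and +103.5 kb) and 3 lower DARs (the TSS, +4.3 and +74.3 kb), beside 9.95% and 12.6% of all peaks, with medians of -0.11 and -0.02. With 2 and 3 of 31, these counts were near the background. All 31 peaks passed the filter on low counts. A broad peak was called at the -27.2, -19.3, +4.3, +5.4 and +82.2 kb peaks only in AhR-KO LPS libraries. They entered the consensus set through the group where they were highest, so any higher DARs among them in AhR-KO with LPS are a description. The -27.2 kb peak was no DAR in the tested comparisons. The +9.0, +58.9 and +109.1 kb peaks were called only in LPS libraries, of both genotypes, and their LPS values carry the same limit. P-values measure the spread between libraries of this 1 experiment.

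**Figure D4:**
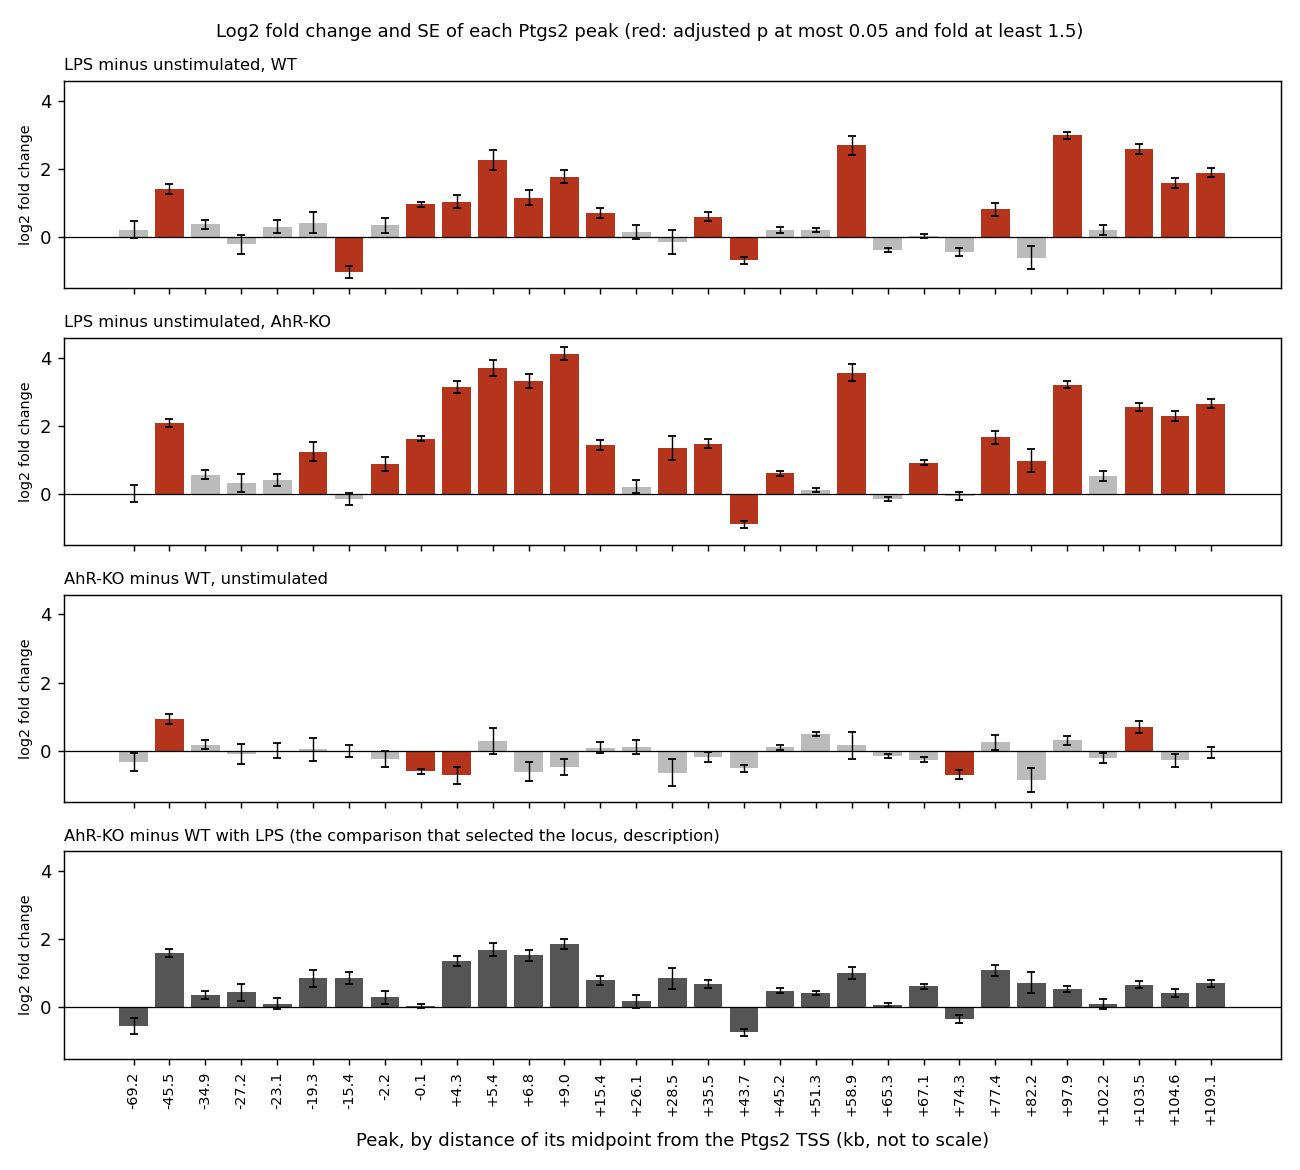
Log2 fold change and SE of each of the 31 peaks in 4 comparisons from the fit to all 24 libraries, in order along the chromosome (not to scale), with DARs of the 3 tested comparisons in red. Of the panels for the LPS response, the WT one has 14 higher DARs and the AhR-KO one 20, while the lowest panel, in grey, is the comparison that selected the locus.

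With LPS, the values that selected the locus ran from -0.73 at +43.7 kb to 1.86 at +9.0 kb on the log2 scale (AhR-KO minus WT, description only). The 4 gene-body peaks gave 1.37 at +4.3 kb, 1.70 at +5.4 kb, 1.53 at +6.8 kb and 1.86 at +9.0 kb, and the -45.5 kb peak 1.60, whereas the TSS peak gave 0.05. The lowest values after the +43.7 kb peak were -0.54 at -69.2 kb and -0.34 at +74.3 kb. Of the 31 peaks 28 had a value above 0, 16 were past a fold of 1.5 upward and 1 downward, and in 14 all 6 AhR-KO libraries lay above all 6 WT libraries, which held for 10.6% of all tested peaks. The median was 0.62 over the 31 peaks and 0.02 over all peaks. The difference of the genotype difference between LPS and unstimulated cultures, which contains the same values, was 2.35 at +9.0 kb, 2.15 at +6.8 kb and 2.10 at +4.3 kb. At the other end it was -0.21 at both -69.2 and +43.7 kb and -0.08 at +51.3 kb. Just inside the threshold, the peaks of the selecting count ran down to the +67.1 kb peak at 0.62, and just outside it lay the +97.9 kb peak at 0.53.

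The limits of the locus are set by the neighbouring genes, and the peaks just beyond them moved as well. The first peaks beyond the members lay at -75.9 and -73.4 kb, assigned to Pla2g4a, and at +118.3 and +121.6 kb, assigned to Pdc. The -73.4 kb peak (chr1:150026097-150027235) rose with LPS by 1.07 in WT (SE 0.15, edgeR adjusted p = 9.23e-08) and by 1.66 in AhR-KO (SE 0.15, edgeR adjusted p = 3.88e-12). The +118.3 kb peak (chr1:150217364-150219292) had a median of 2.77 CPM in unstimulated WT, 3.81 in unstimulated AhR-KO, 4.56 in WT with LPS and 14.3 in AhR-KO with LPS, and rose by 0.80 in WT (SE 0.15, edgeR adjusted p = 2.63e-05) and 1.68 in AhR-KO (SE 0.13, edgeR adjusted p = 2.73e-13).

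Peaks called in each library alone gave a second readout of the same reads. A deposited broad peak overlapped a median of 14.5 of the 31 members in each unstimulated group, 20 in WT with LPS and 23 in AhR-KO with LPS. Members called in all 6 libraries numbered 10 in unstimulated WT, 12 in unstimulated AhR-KO, 15 in WT with LPS and 19 in AhR-KO with LPS. Calls were counted at the 31 members only, so no share over all peaks stands beside these numbers. Whether the groups differ likewise elsewhere in the genome was not examined. When called peaks had to cover at least 50% of a member, the numbers were 4, 5, 11 and 11, so that the LPS groups no longer differed in this count. The +9.0 kb peak was called in 0 of 6 libraries of each unstimulated group and in 6 of 6 of each LPS group, and the +5.4 kb peak only in AhR-KO with LPS, in 5 of 6. The -45.5 kb peak was called in 2 of 6 unstimulated WT libraries and in 6 of 6 of every other group. Of the 9889 bases from the TSS to the end of the +9.0 kb peak, called peaks covered a median of 362 bases in unstimulated WT, 349 in unstimulated AhR-KO, 1928 in WT with LPS and 2530 in AhR-KO with LPS. Calling depends on depth, among other things, and the median total was 30.4 M counts in WT with LPS and 24.98 M in AhR-KO with LPS. The part of depth in these calls was not tested.

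**Figure D5:**
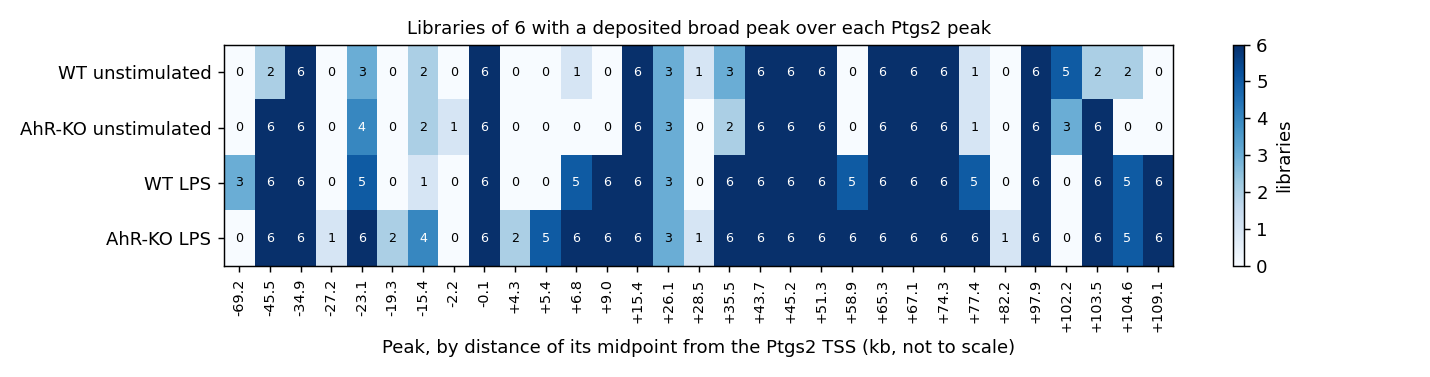
Number of libraries of 6 with a deposited broad peak over each of the 31 Ptgs2 peaks, in 4 groups, in order along the chromosome (not to scale). The +9.0 and +109.1 kb peaks are called in 0 unstimulated and in 6 LPS libraries of each genotype.

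The motifs searched on both strands were the AhR core GCGTG, AP-1 TGANTCA, the cyclic AMP element TGACGTCA, C/EBP TTGCNNAA, PU.1 GAGGAAGT, STAT TTCNNNGAA, the interferon response element GAAANNGAA, and the consensus motifs of NF-kB and CTCF. In windows of 500 bases at the peak midpoint, 2 of the 31 members held the AhR core (6.45%), the TSS and +15.4 kb peaks, beside 24.3% of 174106 peaks with sequence. AP-1 stood in 8 (25.8%, beside 24.8%), C/EBP in 7 (22.6%, beside 23.7%), STAT in 3 (9.68%, beside 17.2%) and the interferon response element in 8 (25.8%, beside 17.2%), among them the +5.4, +6.8 and +9.0 kb peaks over the gene. NF-kB stood in 6 (19.4%, beside 7.10%), the -19.3 kb, TSS, +5.4, +97.9, +103.5 and +104.6 kb peaks. The matches printed above for the -45.5, +9.0, +97.9 and +103.5 kb peaks, the AhR core at +97.9 kb among them, lie outside the 500-base windows and are not counted here. The AP-1 match printed for the +43.7 kb peak lies inside its window. PU.1 (9.80% of all peaks), the cyclic AMP element (0.714%) and CTCF (2.83%) stood in none. The median GC content of the windows was 41.4% for the members and 46.0% for all peaks, and matches are a description that depends on base composition. Of 32851 RefSeq promoters of 250 bases, 28.2% held the AhR core and 9.56% the C/EBP motif that the Ptgs2 promoter above holds.

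Of 15 other genes of prostanoid synthesis and handling, 11 had a TSS peak, and in each of the 3 tested comparisons 0 were higher and 2 were lower DARs, beside 12.6%, 21.6% and 21.5% lower over all tested peaks in the unstimulated comparison and in the LPS responses of WT and AhR-KO. Higher DARs made up 9.95%, 25.4% and 27.3% of all tested peaks in the same order. With 11 peaks the lower counts were near the shares of all tested peaks, and the lack of higher ones was not tested against them. Those shares are not of TSS peaks alone, for which none was computed. In unstimulated AhR-KO the lower DARs were Ptgs1, the gene of the constitutive cyclooxygenase 1 (39.04 CPM in WT and 22.6 CPM in AhR-KO on average, log2 fold change -0.79), and Hpgds, which makes prostaglandin D2 (31.2 and 20.03 CPM, -0.63). With LPS, Ptgs1 fell by 1.05 on the log2 scale in WT and by 0.61 in AhR-KO. Hpgd, which breaks prostaglandins down, fell by 0.83 in WT, and Ptgr1, a reductase that inactivates them, by 0.77 in AhR-KO. Over whole loci, LPS in WT gave 22 higher and 29 lower DARs among 80 tested Pla2g4a peaks, 5 and 6 among 20 of Ptgs1, and 1 and 9 among 20 of Hpgds. In AhR-KO the counts were 27 and 16, 5 and 6, and 3 and 6. Over all tested peaks, LPS gave 25.4% higher and 21.6% lower DARs in WT and 27.3% and 21.5% in AhR-KO. Without stimulation, AhR-KO against WT gave 4 higher and 9 lower DARs at Pla2g4a, 0 and 6 at Ptgs1 and 0 and 11 at Hpgds. The lower ones were 11.25%, 30% and 55% of the tested peaks of each locus, beside 12.6% of all peaks. Pla2g4a, the phospholipase that releases arachidonic acid, is the next protein-coding gene upstream of Ptgs2.

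Among 13462 TSS peaks of other protein-coding genes, those most like the Ptgs2 TSS peak over the 24 libraries were at Ifit1 with Ifit1bl2, Ifitm3, Slc26a4, Rsad2 and Stx11. Likeness was the root mean square difference in log2 CPM centred on each peak's mean, 0.142, 0.160, 0.162, 0.176 and 0.180 for these, against a median of 0.742. The Ifitm3 TSS peak averaged 13.6, 8.54, 26.97 and 28.6 CPM in unstimulated WT, unstimulated AhR-KO, WT with LPS and AhR-KO with LPS.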

How the data were processed

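Per the labels and the study's methods, the authors processed ATAC-seq reads of 24 libraries with the nf-core atacseq pipeline on mm10, called broad peaks with MACS2 in each library and merged them into consensus peaks. The deposited table holds raw fragment counts per consensus peak from featureCounts 2.0.1, in which a read pair counted for every peak that held a fraction of at least 0.2 of it. The authors also deposited 1 broad peak list per library, with a fold enrichment and a -log10 q-value, and no replicates were pooled. All 24 count columns matched 1 library each, and 0 columns of other samples were used.

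After filterByExpr had left 174193 peaks, a quasi-likelihood model with TMM factors and the group as its only term was fitted to all 24 libraries (edgeR 4.0.16, R 4.3.3). P-values were two-sided and adjusted by Benjamini-Hochberg over all of them, and the SE is the log2 fold change divided by the square root of F. The fit was tested on simulated data. Peak starts were raised by 1 to count from 1. The members, lists and tests were chosen with earlier results of these data known. Described in full were the peaks over the gene or up to 2 kb upstream, the 5 highest per kb, up to 3 DARs in each direction per comparison with the largest change, the 3 largest and 3 smallest described values, and the outermost members with the first peaks beyond. Replicate pairs of a group differed by more than counting noise (lowest chi-square per peak 1.23 over 60 pairs). Alternatives were other size factors, filters, dispersions, fold thresholds, tools (DESeq2 1.42.0, limma-voom), assignments of peaks to Ptgs2, a replicate block and leaving out each library. Totals were 8.54 M to 34.6 M counts, so peaks under about 1 CPM rest on few counts.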

Additional observations from a re-analysis of the deposited data

Results flagged for a closer look

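At +6.8 kb, the highest of the 6 WT LPS libraries had 2.41 CPM and stood apart from the other 5, and at +9.0 kb the highest unstimulated AhR-KO library had 1.51 CPM and stood apart likewise. These were 2 of 76 groups examined, of which chance sets apart about 1 in 20. At +67.1 kb, the genotype difference had opposite signs in the 2 conditions: AhR-KO minus WT was -0.27 on the log2 scale in unstimulated cultures, with every AhR-KO library below every WT library, and 0.62 with LPS, with every one above. The difference between these was not tested, since the LPS comparison selected the locus.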

How the results depend on the processing

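The locus has 31 peaks only under its own rule: 6 when TSSs of all annotated genes counted, 7 for peaks in or within 10 kb of the gene and 18 within 50 kb of the TSS. In that order, higher DARs of unstimulated AhR-KO were 0, 0 and 1, LPS in WT gave 6, 6 and 8 higher, LPS in AhR-KO 6, 7 and 12, and AhR-KO against WT with LPS 5, 5 and 10 past the fold. Lower DARs were 0 and 0 under the first 2 rules for both LPS responses and for the LPS genotype comparison. A fold of 2 left 0 higher and 0 lower DARs in the unstimulated comparison, 1 lower for LPS in WT, 0 lower for LPS in AhR-KO, and 7 and 0 for the LPS genotype comparison. With no fold threshold, lower DARs were 6, 4 and 2 in the 3 tested comparisons. A stricter filter, which tested 21 of the 31 peaks, gave 1 lower DAR for LPS in WT and 10 past the fold in the LPS genotype comparison. Requiring called peaks to cover at least 50% of a member gave 4, 5, 11 and 11 members called in all 6 libraries of unstimulated WT, unstimulated AhR-KO, WT with LPS and AhR-KO with LPS.

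Leaving out 1 library at a time, counts ran from 2 to 2 higher and 2 to 5 lower in the unstimulated comparison (5 without AhR-KO LPS replicate 1 or unstimulated AhR-KO replicate 2), 13 to 14 and 2 to 2 for LPS in WT, 19 to 22 and 1 to 1 for LPS in AhR-KO, and 15 to 18 and 1 to 2 for the LPS genotype comparison (2 without AhR-KO LPS replicate 1 or 4 or WT LPS replicate 5 or 6). Values near 0 changed sign: the LPS value in AhR-KO at -69.2 kb (-0.037 with RLE, -0.092 with upper quartile, -0.038 in DESeq2, -0.029 with the 12 libraries compared, -0.093 to 0.084 with single libraries left out), the unstimulated difference at -15.4 kb (0.043 with RLE, 0.047 in DESeq2, -0.077 to 0.049) and at +109.1 kb (0.0123 and 0.0116, -0.11 to 0.0118), and the LPS value in WT at +67.1 kb (-0.0302 with upper quartile, -0.022 to 0.063). The cause was not tested. Searching whole peaks gave 4 members with the AhR core (12.9%, beside 30.4% of all peaks), 13 with AP-1 (41.9%, beside 32.5%), 12 with C/EBP (38.7%, beside 30.7%), 1 with PU.1 (3.23%, beside 13.6%) and 6 with STAT (19.4%, beside 22.8%).

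The labels do not say that a replicate number marks a shared animal or batch. Same-numbered deviations correlated at 0.04 to 0.29 between the WT groups, over 0.1 in 5 of 6 pairs, and at 0.004 to 0.17 between the AhR-KO groups, over 0.1 in 2 of 6, and 4 and 3 of the 6 libraries correlated best with their own number. This is a hint of pairing in WT that did not meet the rule of all pairs over 0.1, so no block was used in the reported fit. With the replicate block the counts were 2 higher and 3 lower, 14 and 2, and 20 and 1 in the tested comparisons, and 16 and 1 in the LPS genotype comparison.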
